A study of Mus musculus with 6 samples.

Results

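The genes described here are 9 of the 48440 rows of the gene count table, chosen by symbol for their part in the passage of leukocytes out of the blood. They are the endothelial adhesion molecules *Vcam1*, *Icam1*, *Sele*, *Selp*, and *Madcam1*, the leukocyte integrin chains *Itga4* and *Itgal*, and the vessel genes *Pecam1* and *Cldn5*. RNA sequencing was done on the ipsilateral L3/4 DRGs of wild-type male mice in 2 groups of 3 libraries. All animals had AAV5 microinjected into unilateral DRGs. The control group received AAV5-*Gfp*, which expresses green fluorescent protein, and the other group received AAV5-*V1* mixed with AAV5-*V2* (AAV5-*V1+V2*), which express both transcript variants of *NIS-lncRNA*, a noncoding RNA induced by nerve injury. The deposited design gives tissue collection at 5 weeks and, in another sentence, profiling at 4 weeks after microinjection. The study gives CD1 mice for its microinjections of AAV5-*V1* or AAV5-*V2* and does not name a strain for these libraries. The age of the mice, the animals behind each library, and the promoter of the viral constructs are not given in the sources used here, so p-values measure only the spread between these libraries. Besides the transcript it carried, the virus preparation itself also set the groups apart, and these cannot be told apart. Where 3 values stand in a row, they are replicates 1, 2, and 3 in that order, and the AAV5-*Gfp* libraries are called controls.

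Leukocytes leave the blood in steps. Selectins on activated endothelium, E-selectin (*Sele*) and P-selectin (*Selp*), catch passing leukocytes by their sugars and let them roll. Chemokines then switch on leukocyte integrins, and these bind endothelial ligands of the immunoglobulin family so that the cell stops. LFA-1, which contains the *Itgal* chain, binds ICAM-1, and VLA-4, which contains the *Itga4* chain, binds VCAM-1. With the *Itgb7* chain the *Itga4* product binds MAdCAM-1, the addressin of gut vessels. PECAM-1 sits at endothelial junctions and also on platelets and many leukocytes, and claudin-5 (*Cldn5*) seals the tight junctions of barrier vessels.

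Total counts were between 32025612 and 34764282 per library. Neuron genes marked every library as DRG, since the lowest of 14 of them had 724 reads or more in each. Levels are given as CPM, which are reads scaled to the library size with edgeR's TMM factors. AAV5-*V1+V2* replicate 1 stood apart from the other 2 libraries of its group. Its summed level of 10 genes common to leukocytes was 1442 CPM against 709.7 to 793 CPM in the others, and its summed level of 14 neuron genes was 6541 CPM against 9081 to 9468 CPM. Values without it are given beside the results for the 9 genes and for some of the other genes and lists.

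Of the 9 genes, 5 rose and 0 fell in AAV5-*V1+V2* DRGs. *Itgal*, *Icam1*, *Vcam1*, *Itga4*, and *Pecam1* were higher in edgeR's quasi-likelihood F-test on 18593 genes (threshold 0.05 after Benjamini-Hochberg adjustment), with folds from 1.84 to 6.51. In the same test 10.1% of all genes were higher and 5.27% were lower. *Selp*, *Sele*, *Madcam1*, and *Cldn5* did not pass, although all 9 had a log2 fold change above 0. DESeq2 and limma-voom also gave 5 higher and 0 lower, and at an unadjusted p under 0.05 edgeR gave 6 and 0. Every AAV5-*V1+V2* library lay above every AAV5-*Gfp* library for 6 of the 9 genes, the 5 higher ones and *Selp*, against 23.4% of all genes tested, and the reverse held for 0 of the 9 against 22%. The median log2 fold change was 1.21 over the 9 genes and -0.0003 over all genes tested. The calls rested on the control libraries, as 2 members (*Vcam1* and *Itga4*) were called without AAV5-*Gfp* replicate 1, 0 without replicate 2, and 0 without replicate 3. Without replicate 2 the adjusted p was 0.0815 for *Vcam1*, *Icam1*, *Itga4*, and *Itgal* and 0.0992 for *Pecam1*, and without replicate 3 it was 0.0875 and 0.109. Without replicate 1 it was 0.0506 for *Icam1*, 0.0505 for *Itgal*, and 0.0771 for *Pecam1*. The fall was seen over the whole table, where 12 to 257 genes were called higher in these fits, against 1872 with all libraries. Each time all 5 members kept an unadjusted p under 0.05.

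**Figure D1:**
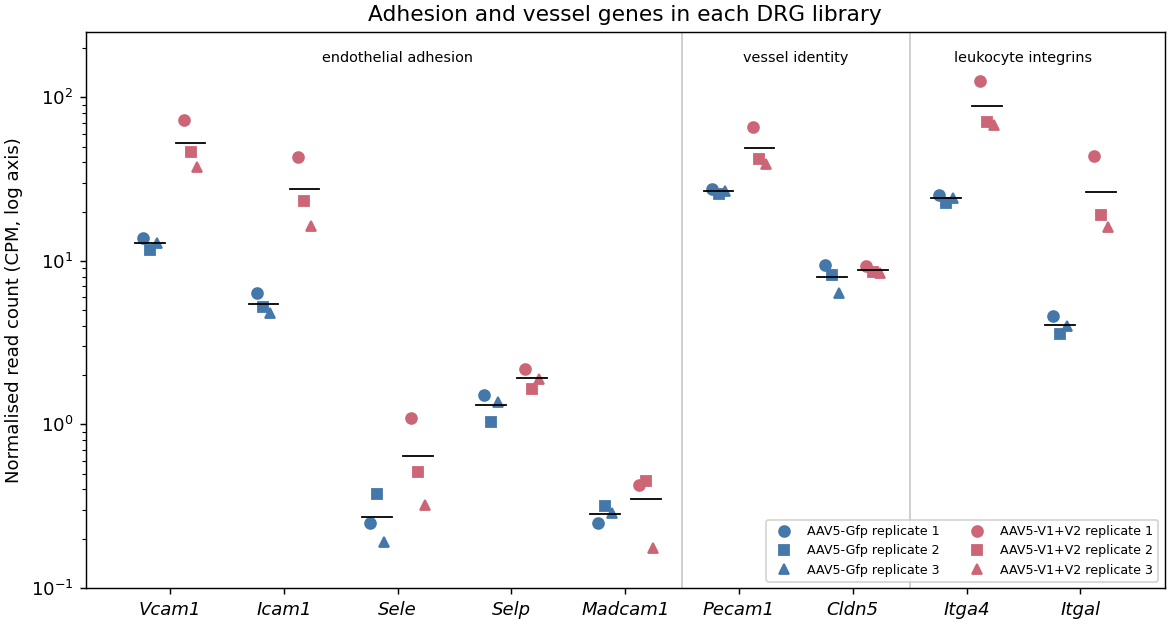
Normalised read counts (CPM, log axis) of the 9 genes in each of the 6 libraries, with AAV5-*Gfp* in blue, AAV5-*V1+V2* in red, a marker shape for each replicate and a black line at each group mean. *Vcam1*, *Icam1*, *Pecam1*, *Itga4*, and *Itgal* separate the groups, with replicate 1 highest of the AAV5-*V1+V2* libraries, whereas *Cldn5* stays between 6.38 and 9.45 CPM in all 6.

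*Vcam1* encodes the ligand of the *Itga4* integrin and is found on the minus strand of chromosome 3 between 116109949 and 116129688 (GRCm38, like all positions here). It was counted at 448, 403, and 403 reads in the control libraries, against 2406, 1545, and 1283 in the AAV5-*V1+V2* libraries. The control libraries lay close together, and the lowest AAV5-*V1+V2* library was far above all of them. Mean levels were 12.8 ± 1.13 and 52.3 ± 18.6 CPM (SD, n = 3 each). This was a 4.08-fold rise (log2 2.03, standard error 0.24, adjusted p = 0.0139 by edgeR's test) with a 95% confidence interval from 2.77 to 6.03. Without AAV5-*V1+V2* replicate 1 it was 3.28-fold (adjusted p = 0.000678).

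*Icam1*, the ligand of LFA-1, lies on chromosome 9 from 21015985 to 21028817, on the plus strand. Its counts were 206, 180, and 150 in the control libraries, against 1422, 772, and 564 in the AAV5-*V1+V2* libraries. The groups did not overlap, but replicate 1 held 2.18 times the mean normalised count of the other 2 AAV5-*V1+V2* libraries. Mean levels were 5.46 ± 0.821 CPM in controls and 27.6 ± 13.9 CPM in the others (SD, n = 3 each). This was a 5.05-fold difference (95% confidence interval 2.87 to 8.90, adjusted p = 0.0144 by edgeR's test), and a 3.64-fold difference without replicate 1 (adjusted p = 0.0018).

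The selectins of endothelium were rare in these libraries. *Selp* lies on chromosome 1 from 164115264 to 164150026, and *Sele* lies beside it from 164048234 to 164057677, both on the plus strand. *Selp* had 49, 36, and 43 reads in the control libraries, against 72, 55, and 65 in the AAV5-*V1+V2* libraries. All AAV5-*V1+V2* libraries were above the controls by a small margin. An opposite-strand gene that overlaps *Selp*, *Gm16548*, held 0 to 9 reads. The difference was 0.54 on the log2 scale (standard error 0.21), with an unadjusted p of 0.0363 and an adjusted p of 0.119 by edgeR's test, and 0.44 without AAV5-*V1+V2* replicate 1. For *Sele* the controls held 8, 13, and 6 reads and the AAV5-*V1+V2* libraries 36, 17, and 11. The groups overlapped, since AAV5-*V1+V2* replicate 3 was below AAV5-*Gfp* replicate 2. The fold was 2.32 (95% confidence interval 0.996 to 5.39, adjusted p = 0.145 by edgeR's test), and 1.51 without AAV5-*V1+V2* replicate 1. At these counts a difference of this size was not resolved.

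*Madcam1*, on chromosome 10 from 79664559 to 79668537 (plus strand), was at the edge of what these libraries detect. It had 8, 11, and 9 reads in the control libraries, against 14, 15, and 6 in the AAV5-*V1+V2* libraries. The lowest and the highest of the 6 libraries both received AAV5-*V1+V2*. The fold of 1.22 had a 95% confidence interval from 0.624 to 2.39 (adjusted p = 0.645 by edgeR's test), which spans falls and rises alike. Without AAV5-*V1+V2* replicate 1 the log2 fold change was 0.13.

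Upstream sequence was at hand for 6 of the 9 genes (*Icam1*, *Sele*, *Selp*, *Madcam1*, *Cldn5*, and *Itga4*, RefSeq, GRCm38.p6). *Vcam1*, *Pecam1*, and *Itgal* had no entry. The 250 bases before the RefSeq start are shown for 4 of them, a gene that rose (*Icam1*), a pair that did not pass the test (*Sele* and *Madcam1*), and the barrier gene *Cldn5*, which is their comparison. Capitals mark matches to motifs searched on either strand, namely GGANNTTCC (as bound by NF-κB, the factor best known for inducing endothelial adhesion genes), GGAAGT (the core of ETS factors), TGANTCA (AP-1), the interferon-stimulated response element, and TATAAA on the gene's strand. The windows lie at chr9:21015690-21015939 (*Icam1*), chr1:164047984-164048233 (*Sele*), chr10:79664309-79664558 (*Madcam1*), and chr16:18776597-18776846 (*Cldn5*), all on the plus strand.
Icam1: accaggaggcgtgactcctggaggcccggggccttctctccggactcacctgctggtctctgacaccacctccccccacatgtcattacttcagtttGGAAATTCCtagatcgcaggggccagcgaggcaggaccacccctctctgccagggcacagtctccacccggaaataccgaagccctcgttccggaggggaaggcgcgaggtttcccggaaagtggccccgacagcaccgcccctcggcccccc
Sele: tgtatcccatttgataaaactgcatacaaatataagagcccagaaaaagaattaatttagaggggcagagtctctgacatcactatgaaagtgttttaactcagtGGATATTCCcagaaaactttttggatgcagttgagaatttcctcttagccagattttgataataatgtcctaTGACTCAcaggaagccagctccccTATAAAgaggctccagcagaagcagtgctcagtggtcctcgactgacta
Madcam1: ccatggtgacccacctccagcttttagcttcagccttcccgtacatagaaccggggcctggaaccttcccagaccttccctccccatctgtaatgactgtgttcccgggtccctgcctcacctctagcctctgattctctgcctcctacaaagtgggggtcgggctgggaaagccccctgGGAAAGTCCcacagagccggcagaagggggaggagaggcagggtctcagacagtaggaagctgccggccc
Cldn5: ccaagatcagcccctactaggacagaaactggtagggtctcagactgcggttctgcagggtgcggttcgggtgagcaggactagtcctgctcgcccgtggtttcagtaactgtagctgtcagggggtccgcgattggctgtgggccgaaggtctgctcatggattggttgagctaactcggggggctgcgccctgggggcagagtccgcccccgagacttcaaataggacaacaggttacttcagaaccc

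The motif GGANNTTCC was found upstream of *Icam1* (GGAAATTCC, from -153 to -145), *Sele* (GGATATTCC, from -145 to -137), and *Madcam1* (from -70 to -62, a match on the minus strand whose plus-strand letters are GGAAAGTCC), where positions count back from the start. It was present in 3 of the 6 windows, and in 3.59% of 32851 promoter windows of the same length. TGANTCA was found upstream of *Sele* and *Selp* (6.75% of windows), and TATAAA upstream of *Sele* (7.59% of windows). GGAAGT (19.7% of windows) and the interferon-stimulated response element (2.98% of windows) were in none of the 6 windows. The windows of *Cldn5* and *Itga4* held no match to these motifs, although *Itga4* rose. These matches are descriptions of the sequence and were not set against binding in these DRGs.

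Both integrin chains carried by leukocytes rose. *Itga4*, the chain of VLA-4, lies on chromosome 2 from 79255426 to 79333123 (plus strand) and had 820, 780, and 761 reads in the control libraries, against 4156, 2360, and 2319 in the AAV5-*V1+V2* libraries. This gave 24.1 ± 1.47 CPM in controls and 88.3 ± 33.0 CPM in the other group (SD, n = 3 each), with no overlap. The fold was 3.66 (95% confidence interval 2.48 to 5.40, adjusted p = 0.0140 by edgeR's test), and 2.88 without AAV5-*V1+V2* replicate 1. *Itga4* overlaps *Cerkl* on the opposite strand, which had between 145 and 229 reads in every library.

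*Itgal*, the chain of LFA-1, had the largest fold of the 9 genes. It lies on chromosome 7 from 127296260 to 127335138 (plus strand). It was counted at 148, 123, and 124 reads in the control libraries, against 1434, 635, and 555 in the AAV5-*V1+V2* libraries. Replicate 1 held 2.47 times the mean normalised count of the other 2 libraries of its group, and the lowest of the 3 was still above every control. The rise was 6.51-fold (log2 2.70, standard error 0.39, 95% confidence interval 3.47 to 12.2, adjusted p = 0.0144 by edgeR's test), and 4.38-fold without replicate 1.

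Of the vessel genes, *Pecam1* rose and *Cldn5* did not pass the test, a difference that was not itself tested. *Pecam1*, on chromosome 11 from 106654217 to 106750628 (minus strand), had 885, 893, and 836 reads in the control libraries, against 2160, 1403, and 1351 in the AAV5-*V1+V2* libraries. It rose 1.84-fold (95% confidence interval 1.36 to 2.49, adjusted p = 0.0269 by edgeR's test), and 1.53-fold without AAV5-*V1+V2* replicate 1. *Cldn5*, a gene of a single exon on chromosome 16 from 18776847 to 18778262 (plus strand), had 305, 284, and 199 reads in the control libraries, against 305, 285, and 291 in the AAV5-*V1+V2* libraries. The AAV5-*V1+V2* libraries of *Cldn5* lay within the range of the controls after scaling. The fold was 1.09, with a 95% confidence interval from 0.853 to 1.40 (adjusted p = 0.573 by edgeR's test). On the log2 scale this was 0.13, and 0.093 without AAV5-*V1+V2* replicate 1. In bulk DRGs, a change in the number of cells of a type and a change in RNA per cell cannot be told apart.

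**Figure D2:**
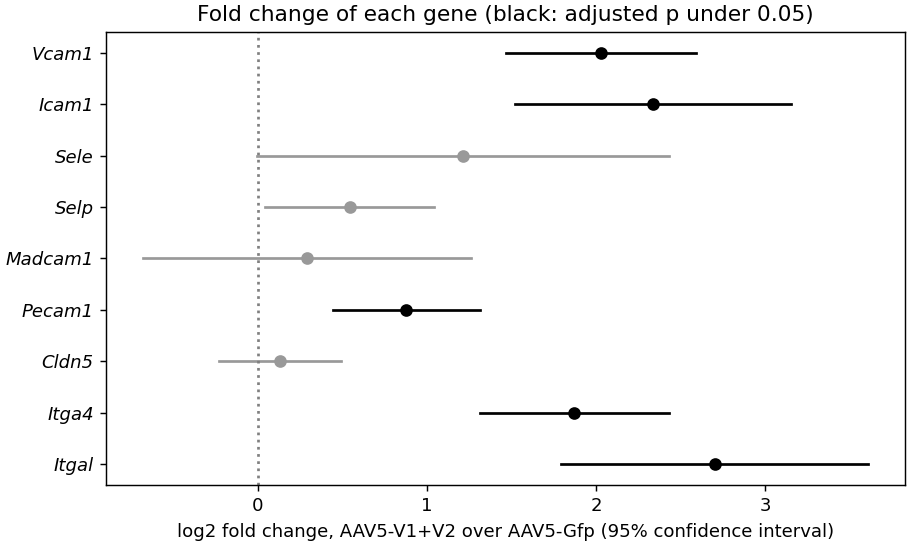
Log2 fold changes of the 9 genes, AAV5-*V1+V2* over AAV5-*Gfp* (points), with 95% confidence intervals (lines), where black marks an adjusted p under 0.05 in edgeR's test. The intervals of *Itgal*, *Icam1*, *Vcam1*, *Itga4*, and *Pecam1* lie above 0, and that of *Cldn5* runs from -0.23 to 0.49.

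Per kilobase of the longest coding transcript, the control DRGs held the vessel genes at the highest level. The order with AAV5-*Gfp* was *Pecam1* (7.75 ± 0.242 CPM per kilobase, SD, n = 3), *Cldn5* (5.66 ± 1.09), *Vcam1* (3.69 ± 0.326), *Itga4* (2.47 ± 0.150), *Icam1* (2.15 ± 0.324), *Itgal* (0.773 ± 0.0998), *Selp* (0.382 ± 0.0717), *Madcam1* (0.198 ± 0.0243), and *Sele* (0.0933 ± 0.0322). In that order the libraries of neighbouring genes overlapped only for *Itga4* and *Icam1*. With AAV5-*V1+V2*, *Vcam1* (15.1 ± 5.36 CPM per kilobase) and *Pecam1* (14.3 ± 4.19) were followed by *Icam1* (10.9 ± 5.49), *Itga4* (9.04 ± 3.38), *Cldn5* (6.19 ± 0.306), *Itgal* (5.03 ± 2.88), *Selp* (0.556 ± 0.0781), *Madcam1* (0.244 ± 0.106), and *Sele* (0.220 ± 0.138). Neighbours overlapped from *Vcam1* to *Itga4*, for *Cldn5* and *Itgal*, and for *Madcam1* and *Sele*. With the merged exons of all transcripts in place of the longest, *Cldn5* (5.66) was above *Pecam1* (4.28) and *Itga4* (1.72) was above *Vcam1* (1.44) in the control DRGs. With AAV5-*V1+V2* the merged exons put *Pecam1* (7.88), *Icam1* (6.33), *Itga4* (6.31), and *Cldn5* (6.19) above *Vcam1* (5.90). The place of *Vcam1* in the order thus depended on the length used.

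Listed endothelial genes outside the 9 were set beside the rise of *Vcam1*, *Icam1*, and *Pecam1*. Of 39 genes of blood, barrier, and lymphatic endothelium, 1 rose, 2 fell, and 36 did not pass edgeR's test. Over all genes that test called 10.1% higher and 5.27% lower, which is the background for its counts in each list below. At an unadjusted p under 0.05, 5 of the 39 were higher and 6 were lower. Without single libraries the calls ran from 0 to 1 higher and from 0 to 4 lower. *Cdh5*, the cadherin of endothelial junctions, had 1126, 1157, and 857 reads in the control libraries, against 1157, 1209, and 1153 in the AAV5-*V1+V2* libraries. The fold was 1.10 (adjusted p = 0.371 by edgeR's test). In controls, *Reln* (mean 284 CPM) of the lymphatic list and *Tjp1* (164 CPM) of the barrier list were above *Cdh5* (31.9 CPM). Which cells gave the reads of these lists was not tested. Of 18 blood endothelial genes, *Flt1*, a receptor of VEGF, fell by 0.42 on the log2 scale (adjusted p = 0.0378), whereas *Emcn* (log2 fold change -0.35) and *Plvap* (0.54) did not pass. Their median log2 fold change was 0.02, and their summed level was 369.7 to 400.2 CPM with AAV5-*Gfp* and 355.6 to 394.5 CPM with AAV5-*V1+V2*. Of 14 barrier genes, *Itm2a* rose (log2 fold change 0.37, adjusted p = 0.0200) and *Mfsd2a*, a lipid transporter of barrier endothelium, fell by 0.38 on the log2 scale (adjusted p = 0.0496). The transporter gene *Slco1a4* did not pass (log2 fold change -0.46, adjusted p = 0.0596). The 7 lymphatic genes gave 0 calls by edgeR, DESeq2, and limma-voom (0 by edgeR at an unadjusted p under 0.05 as well), with a median log2 fold change of 0.14, and so did the 10 mural cell genes (median -0.02).

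Set against the vessel genes of the same library, *Vcam1* and *Icam1* still lay higher in all AAV5-*V1+V2* libraries. The log2 level of *Vcam1* minus the mean of *Pecam1* and *Cldn5* was -0.21, -0.32, and -0.02 in the control libraries, against 1.57, 1.29, and 1.03 in the AAV5-*V1+V2* libraries. The groups did not overlap, and their means differed by 1.48, or 2.79-fold, and by 1.34 without AAV5-*V1+V2* replicate 1. For *Icam1* the same difference was 1.73 (3.32-fold), without overlap, and 1.49 without that library. *Sele* (0.57), *Selp* (0.05), and *Madcam1* (-0.31) overlapped between groups on this relative scale, with 0.24, 0.08, and -0.37 without that library. Exact two-sided permutation tests gave p = 0.1 for *Vcam1* and *Icam1*, the smallest that 3 libraries against 3 allow (0.233 after Benjamini-Hochberg adjustment over 7 such tests). Because *Pecam1* itself rose, the reference was also replaced by the 18 blood endothelial genes. The differences were then 1.95 for *Vcam1*, 2.21 for *Icam1*, and 0.53 for *Selp*, each without overlap, and 1.04 for *Sele* and 0.16 for *Madcam1*, both with overlap.

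**Figure D3:**
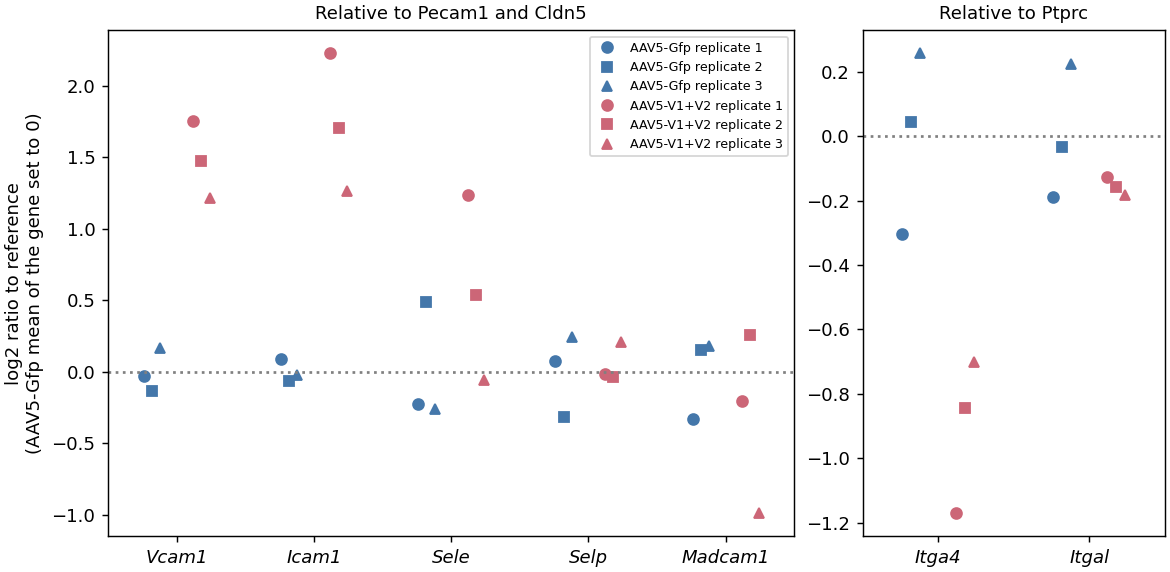
Log2 ratio of each adhesion gene to the mean of *Pecam1* and *Cldn5* (left) and of each integrin chain to *Ptprc* (right, with its own axis range) in each library, with the AAV5-*Gfp* mean of each gene set to 0. *Vcam1* and *Icam1* separate the groups upward and *Itga4* separates them downward, whereas *Sele*, *Selp*, *Madcam1*, and *Itgal* overlap.

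Genes of the leukocytes that carry these integrins rose as well. Of 39 genes of leukocytes in general, T cells, B cells, and macrophages, 35 were higher and 0 were lower in edgeR's test, with a median log2 fold change of 2.35. DESeq2 gave 38 and 0, limma-voom 35 and 0, and an unadjusted p under 0.05 in edgeR 38 and 0. Without AAV5-*V1+V2* replicate 1 the count was 35, and the medians went from 2.23 to 1.77 for the general leukocyte genes, from 3.26 to 2.88 for T cells, from 3.24 to 2.82 for B cells, and from 1.66 to 1.30 for macrophages. The count was 22 without AAV5-*Gfp* replicate 1 and 0 without AAV5-*Gfp* replicate 2 or 3, where 38 kept an unadjusted p under 0.05. The summed level of 10 general leukocyte genes was 323 to 358.8 CPM with AAV5-*Gfp* and 709.7 to 1442 CPM with AAV5-*V1+V2*, and none of them was at 0 in any library. In controls *Lcp1* (mean 150 CPM, log2 fold change 0.49) gave more of this sum than any other gene. *Coro1a* (56.3 CPM in controls) had a log2 fold change of 0.61. *Ptprc*, the CD45 gene of all leukocytes, had 1289, 963, and 811 reads in the control libraries, against 11917, 5400, and 4804 in the AAV5-*V1+V2* libraries (log2 fold change 2.83, standard error 0.39, and 2.28 without AAV5-*V1+V2* replicate 1). *Cd53* (2.59) and *Dock2* (2.16) rose with it, as did the T cell genes *Cd5* (3.19), *Cd4* (3.33), and *Cd247* (2.75). The B cell genes *Ms4a1* (5.49), *Cd79b* (3.24), and *Cd22* (3.77) and the complement genes *C1qa* (1.93), *C1qb* (1.70), and *C1qc* (1.78) of macrophages rose too. *Icam1*, *Pecam1*, and *Vcam1* can also be expressed by leukocytes or stromal cells, and the part of leukocyte RNA in their rise was not tested.

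Relative to *Ptprc*, *Itga4* was lower in all AAV5-*V1+V2* libraries and *Itgal* overlapped. The log2 level of *Itga4* minus that of *Ptprc* was -0.65, -0.30, and -0.09 in the control libraries, against -1.52, -1.19, and -1.05 in the AAV5-*V1+V2* libraries. The means differed by -0.91 without overlap (p = 0.1, exact two-sided permutation test), and by -0.77 without AAV5-*V1+V2* replicate 1. For *Itgal* the means differed by -0.16 with overlap (p = 0.4, exact two-sided permutation test), and by -0.17 without that library. This comparison depended on the reference. Against the mean of 10 general leukocyte genes, *Itga4* differed by -0.10 with overlap and *Itgal* by 0.65 without overlap. That mean includes *Lcp1* (log2 fold change 0.49) and *Coro1a* (0.61), whereas the other genes of the list had 2.15 or more. A mean without *Lcp1* and *Coro1a* was not tested.

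Of the partner chains, *Itgb2* and *Itgb7* rose and *Itgb1* did not pass. *Itgb2*, which pairs with *Itgal*, had 354, 349, and 328 reads in the control libraries, against 3348, 1379, and 1155 in the AAV5-*V1+V2* libraries (log2 fold change 2.49, standard error 0.41, adjusted p = 0.0159 by edgeR's test). The rise of *Itgb2* was 5.60-fold with all libraries and 3.58-fold without AAV5-*V1+V2* replicate 1. *Itgb7*, a partner of *Itga4*, rose as well (log2 fold change 2.11, adjusted p = 0.0168). *Itgb1*, the other partner of *Itga4*, is expressed by nearly every cell and was between 8602 and 9631 reads in all 6 libraries (log2 fold change 0.06, adjusted p = 0.533). Of 10 other integrin chains tested, 6 rose and 0 fell (7 and 0 at an unadjusted p under 0.05, 0 to 6 higher without single libraries), among them *Itgax* of dendritic cells and macrophages (log2 fold change 3.14) and *Itgae* (1.75), which binds E-cadherin. Without AAV5-*V1+V2* replicate 1, 6 rose as well, and the median log2 fold change of these chains was 0.96 in place of 1.22. *Itgam* was split over 2 suffixed rows and was left out.

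Of 13 genes of the selectin system tested, 6 rose and 0 fell by edgeR, with 7 and 2 at an unadjusted p under 0.05, 6 and 2 by DESeq2, and 0 to 6 higher without single libraries. *Selplg*, the leukocyte ligand of P-selectin, rose 4.31-fold (adjusted p = 0.0144 by edgeR's test), and *Spn*, which encodes CD43, rose 5.25-fold. *Glycam1*, which encodes a mucin-like glycoprotein, had 14, 10, and 9 reads in the control libraries, against 47, 47, and 38 in the AAV5-*V1+V2* libraries (log2 fold change 1.95). Leaving out AAV5-*V1+V2* replicate 1, 5 of the 13 rose, with a median of 0.85 in place of 0.95.

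Of 12 genes linked to the control of integrin activation, 7 rose and 0 fell by edgeR. The counts were 10 and 0 at an unadjusted p under 0.05, 8 and 0 by DESeq2, and 0 to 8 higher without single libraries. The 7 higher genes included *Skap1* (log2 fold change 2.65), *Apbb1ip* (1.89), and *Cytip* (2.79), which act in leukocytes. The list was not split into genes that raise and genes that lower activation. The median of the 12 was 0.60, and 0.40 without AAV5-*V1+V2* replicate 1. Among 13 genes of junctions and transmigration, 0 rose and 1 fell in edgeR's test. At an unadjusted p under 0.05, 3 were higher and 4 were lower. DESeq2 gave 2 higher and 3 lower, and edgeR without AAV5-*V1+V2* replicate 1 gave 2 higher and 1 lower. In controls, *Alcam* (mean 196 CPM) and *Thy1* (170 CPM) of this list were above the endothelial gene *Cdh5* (31.9 CPM). Which cells gave these reads was not tested. *Jam2*, a junctional adhesion molecule, fell by 0.44 on the log2 scale (adjusted p = 0.0278). *Icam2*, a ligand of LFA-1 that resting endothelium carries, had a log2 fold change of 1.04 and an adjusted p of 0.0503, and *Cd47* had 0.39 and 0.0718. Both passed without AAV5-*V1+V2* replicate 1, with log2 fold changes of 0.67 (adjusted p = 0.0452) and 0.25 (adjusted p = 0.0489).

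**Figure D4:**
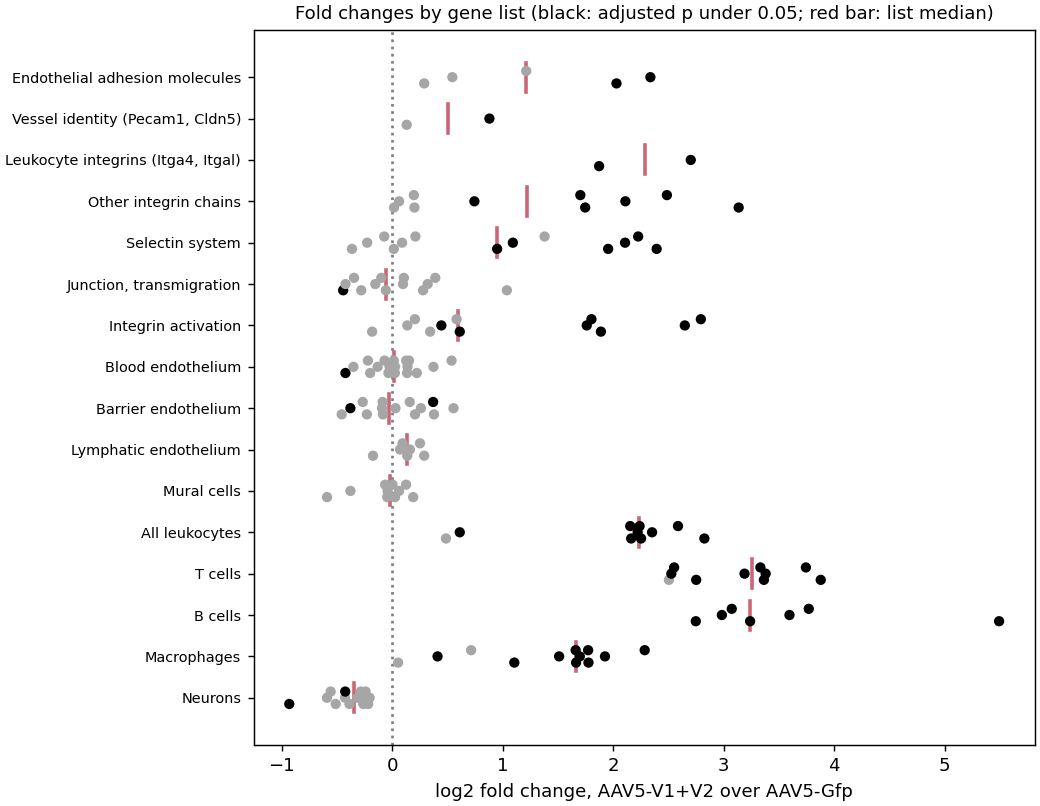
Log2 fold changes of single genes (points) in the 9 genes by group and in 13 lists of other genes, where black marks an adjusted p under 0.05 in edgeR's test and a red bar the list's median. The endothelial and mural lists centre on 0, with medians from -0.03 to 0.14, and the leukocyte lists lie to the right, with medians from 1.66 to 3.26.

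Of 14 neuron genes 2 fell in edgeR's test, *Rbfox3* by 0.93 and *Pou4f1* by 0.43 on the log2 scale, with *Scn9a* at -0.56 (adjusted p = 0.0523). All 14 had a log2 fold change below 0, and 6 were lower at an unadjusted p under 0.05. For 9 of the 14, every AAV5-*V1+V2* library lay below every AAV5-*Gfp* library, against 22% of all genes tested. Without any one of the AAV5-*Gfp* libraries 0 were called lower, where 4 or 5 had an unadjusted p under 0.05. Leaving out AAV5-*V1+V2* replicate 1, 2, or 3 gave 6, 1, or 4 lower genes, and DESeq2 gave 6. *Scn9a* was among the 6 without replicate 1 (-0.39, adjusted p = 0.0249), although the list's median went from -0.35 to -0.20. The summed neuron level was 10100 to 10841 CPM with AAV5-*Gfp* and 6541 to 9468 CPM with AAV5-*V1+V2*. The fibroblast genes *Col3a1* (log2 fold change 0.90) and *Col1a2* (0.84) rose, and *Pdgfra* (0.43) did not pass. Of the 6 fibroblast genes, 2 were higher in all, with 0 without any one of the AAV5-*Gfp* libraries (4 at an unadjusted p under 0.05), 1 to 3 without single AAV5-*V1+V2* libraries, and 4 by DESeq2. Genes of satellite glia (5 tested, lowest adjusted p for *Kcnj10*, 0.110), Schwann cells (6 tested, *Egr2*, 0.101), and red cells and platelets (9 tested, *Pf4*, 0.0643) gave 0 calls in edgeR's test, DESeq2, and limma-voom. At an unadjusted p under 0.05, edgeR gave 1, 1, and 4 genes in these lists. The part of the shifts in neuron and fibroblast genes in the results above was not tested.

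Among 14732 genes whose mean log2 CPM reached 1, the pattern over the 6 libraries most like that of *Vcam1* was shown by the class I gene *H2-Q7* and the class II gene *H2-DMb2* (Pearson's r 0.999 for both). The nearest to *Icam1* were *Pyhin1* and the class II gene *H2-Aa*, those to *Itgal* were *Arhgap15* and *Gimap8*, and those to *Pecam1* were *N4bp2* and *Rbl1*. For *Itga4* they were *Hnrnpa2b1* and *Clec2g*. With 6 libraries in 2 groups that differed in their summed leukocyte and neuron levels, these likenesses are descriptions only. *Cldn5* was closest to *Bok* and *Tomm40*, with log2 fold changes of 0.13 and 0.12. *Sele* was closest to *Zfp513* and *Gnpat*, *Selp* to *Scfd1* and the chemokine gene *Ccl19*, and *Madcam1* to *Adhfe1* and *Tbc1d16*.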

How the data were processed

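Raw counts per gene symbol were deposited by the authors as 1 table of whole numbers with a column for each library. Libraries were stranded total RNA. The submitters' notes name GRCm38 and mm10. The aligner, the counter, the annotation, and the use of strand are not given in the sources used here. The members, gene lists, and tests were chosen with earlier results of these data known.

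After filterByExpr and TMM scaling, glmQLFit and glmQLFTest were run (edgeR 4.0.16, R 4.3.3) with no covariate and Benjamini-Hochberg adjustment over 18593 genes. Standard errors were the absolute log2 fold change divided by the square root of F. Log2 levels in ratios had 0.5 counts added. Positions and transcript lengths were from GENCODE M21, and sequences from RefSeq. Genes were named by a rule: every member, the partner and reference genes, up to the 3 smallest p of each list, and the 2 nearest genes of each member. Alternatives were RLE, total counts, filters, DESeq2 1.42.0, limma-voom 3.58.1, a replicate block, other references, and leaving out each library. Library pairs within a group had chi-square values per degree of freedom of 8.27 to 48.9, so none was a duplicate.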

Additional observations from a re-analysis of the deposited data

How the results depend on the processing

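The reference *Cldn5* alone, the list counts by other tools or without single libraries, and the values of other genes without AAV5-*V1+V2* replicate 1 were chosen after seeing the data. All 5 higher genes (*Vcam1*, *Icam1*, *Pecam1*, *Itga4*, *Itgal*) kept their direction in every alternative run and their calls with RLE, total counts, both other filters, DESeq2, and limma-voom. The number of calls fell without any one of the control libraries, over all genes as well as for the members. Higher members numbered 2 without AAV5-*Gfp* replicate 1, 0 without replicate 2, and 0 without replicate 3 (5 at an unadjusted p under 0.05 in both of the latter), and from 0 to 5 over the 6 fits that each left out one library. The log2 fold changes in those fits were 1.71 to 2.23 for *Vcam1*, 1.86 to 2.61 for *Icam1*, 0.62 to 1.03 for *Pecam1*, 1.53 to 2.04 for *Itga4*, 2.13 to 2.97 for *Itgal*, and -0.0092 to 0.27 for *Cldn5*, which reversed without AAV5-*Gfp* replicate 3. The highest adjusted p was 0.0875 for *Vcam1*, *Icam1*, *Itga4*, and *Itgal* and 0.109 for *Pecam1*. Over all genes the fits gave 12 to 2474 higher and 0 to 1446 lower genes, and the cause was not tested. DESeq2 gave 1606 lower genes. Adding a 2-fold threshold left 1052 higher and 47 lower genes, by its construction.

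The ratio to a reference changed sign for *Madcam1* with the blood endothelial list (0.16) and with *Cldn5* alone (0.034), and for *Itgal* with the leukocyte list (0.65). Over the fits without one library the ratio ran from -0.11 to 0.17 for *Selp* and from -0.60 to 0.025 for *Madcam1* (above 0 without AAV5-*V1+V2* replicate 3). *Selp* was below 0 without AAV5-*Gfp* replicate 2 (-0.11) and without AAV5-*V1+V2* replicate 3 (-0.028). Scaling by total counts moved the median of all genes to 0.06 and the higher share of calls from 65.6% to 74.6%. With the replicate block, which pairs libraries by number, 5 members were higher and 0 lower, as without it (log2 fold change 1.98 for *Vcam1* and 2.58 for *Itgal*), with 2118 higher and 1341 lower genes in all, and it changed no member's call. Deviations of same-numbered libraries correlated at 0.0947, 0.0926, and 0.160 over 14732 genes, and every library correlated best with its own number, a hint from the data only. Depth limited *Sele* and *Madcam1*, at 6 to 36 reads. The lowest count of any gene was 3 in the T cell list and 4 in the B cell list.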
